A study of Homo sapiens with 6 samples.

Results

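Planar cell polarity and noncanonical Wnt signalling was followed through 10 genes: the ligand WNT5A, the receptors ROR1 and ROR2, and the core polarity genes PRICKLE1, PRICKLE2, VANGL1, VANGL2, CELSR2, DVL2 and DVL3. They were looked up by gene name, and each had 1 row among the 30015 genes of the deposited table. The genes were chosen on measured values of the comparison below, with earlier results of these data known, so their differences between the groups are given as a description with no test. RNA-seq was performed on HMV-II cells, an established human mucosal melanoma line of vaginal origin, in 2 groups of 3 libraries. Vector cells were labelled wild type and untreated, and shEZH2 cells carried a short hairpin RNA against EZH2, the methyltransferase subunit of the polycomb repressive complex PRC2. Both came from the same parental line, grown in F10 medium with fetal bovine serum. By the study's methods they were stable lines made with lentiviral particles and puromycin, with a scrambled hairpin as the negative control. Which of the EZH2 hairpins was used is named only by the heading sh1 in the table, and nothing in the labels says that the libraries of a group came from separate cultures, so the spread between them may be technical.

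Wnt5a signals largely without beta-catenin. It binds Ror receptor kinases and Frizzled receptors, and dishevelled proteins pass the signal on to kinases such as c-Jun N-terminal kinase, which act on the cytoskeleton and cell movement. Within epithelia the same dishevelled proteins work in the planar polarity system, where the atypical cadherins of the Celsr family bridge neighbouring cells, and Vangl and Prickle proteins gather on the opposite side from Frizzled and dishevelled. In melanoma WNT5A is best known for its link with motility and invasion, and PRC2 is known for keeping developmental genes with CpG-rich promoters silent.

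The reads behind the values ranged from 13400290 to 15923029 per Vector library and from 16129171 to 19128939 per shEZH2 library. Values are normalized counts, the reads of a gene divided by a size factor per library. The Vector libraries 1, 2 and 3 held 483, 437 and 552 normalized counts of EZH2, and the shEZH2 libraries held 237, 247 and 225. The groups did not overlap, and EZH2 fell by 1.04 on the log2 scale (SE 0.14, limma adjusted p = 0.0142, exact two-sided permutation p = 0.1, the smallest that 3 against 3 libraries allow). All 8 melanocyte lineage markers reached a mean of 10 normalized counts, with summed levels, mostly PMEL, of 75515 to 100744 in Vector and 78898 to 85355 in shEZH2. Among them TYRP1 rose from 275 ± 15.6 to 887 ± 50.8 (limma adjusted p = 0.00317), MLANA rose from 429 ± 201 to 714 ± 15.9 (limma adjusted p = 0.214), and TYR fell from 6343 ± 1695 to 3148 ± 48.5 (limma adjusted p = 0.0532), by the threshold defined below. Without Vector replicate 2 the log2 fold change of MLANA went from 0.88 to 0.39, under that threshold. The fibroblast list summed to 176 to 245 in Vector and 249 to 310 in shEZH2, with COL1A1, DCN and PDGFRA under 10 in all 6 libraries. Both other genes of that list passed, LUM higher (148 ± 24.7 to 247 ± 33.9, limma adjusted p = 0.0772) and COL1A2 lower (65.5 ± 10.9 to 36.9 ± 9.77, limma adjusted p = 0.120). The epithelial list summed to 396 to 437 against 343 to 366, nearly all CDH1 (414 ± 17.8 and 342 ± 16.1), with EPCAM under 10 in all 6 libraries. The endothelial list summed to 21.4 to 67.5 against 20.0 to 26.4, with PECAM1 under 10 in all 6. Its 67.5 was VWF in Vector replicate 2. The leukocyte list summed to 9.16 to 22.1 against 11.5 to 17.6. The part of other cells in the results was not tested.

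Vector replicate 2 stood apart from the other Vector libraries. Its reads differed from those of replicates 1 and 3 by a mean chi-square per gene of 119 and 117, against 2.14 between replicates 1 and 3 and 6.49 to 23.9 between shEZH2 libraries. The gap followed gene length: over 5 length classes of the tested genes, from the shortest to the longest, the median log2 level in Vector replicate 2 minus the mean of the other Vector libraries was -0.54, -0.37, -0.07, 0.13 and 0.42. The members are long genes, of 5340 to 14747 bases (median 7056, against 5230 for the 12470 protein-coding genes tested), and 4 of the 10 lie in the longest class. Among the 9 members that could be compared, Vector replicate 2 was the highest of the 3 Vector libraries in 8 and the highest of all 6 libraries in 6. Each member is therefore given with and without that library.

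**Figure D1:**
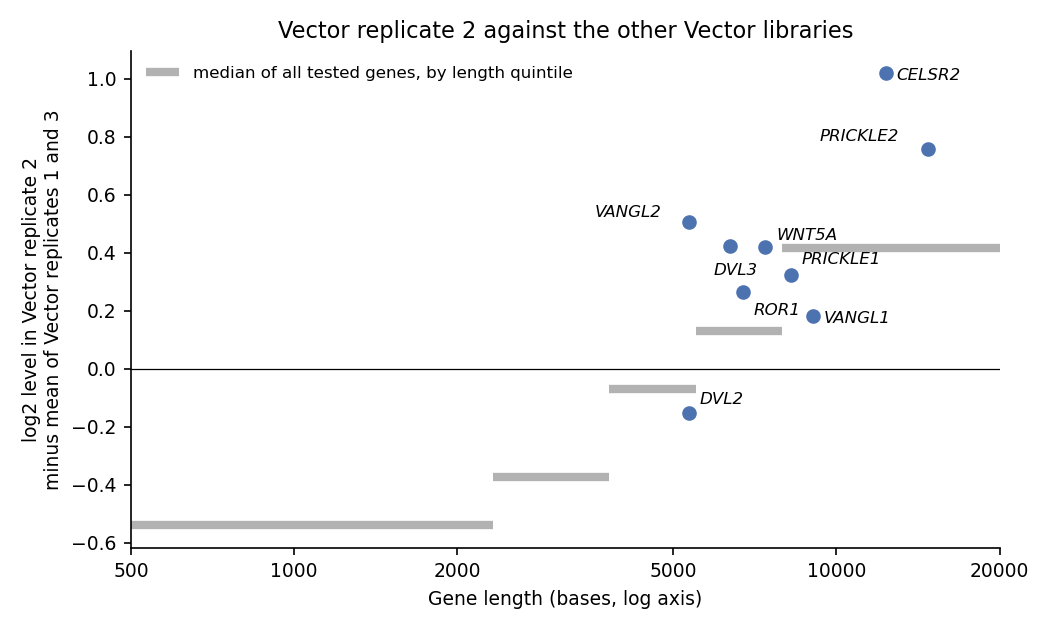
Level of each of 9 members in Vector replicate 2 minus the mean of Vector replicates 1 and 3 (log2 of normalized count + 1, vertical axis) against gene length in bases (log axis). Grey bars are medians of all tested genes in 5 length classes, rising from -0.54 to 0.42, and the members lie between -0.15 for DVL2 and 1.02 for CELSR2.

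PRICKLE1 was the member that differed most between the groups. PRICKLE1 encodes a cytoplasmic LIM-domain protein of the polarity core that binds Vangl proteins. In normalized counts its level was 61.7, 82.7 and 70.3 in the Vector libraries, in replicate order, and 310, 301 and 329 in the shEZH2 libraries. All 3 shEZH2 libraries lay well above all 3 Vector libraries, at 314 ± 14.4 against 71.5 ± 10.5 (SD, n = 3 each), a ratio of the means of 4.38. These values rest on 59 to 71 reads per Vector library and 326 to 377 per shEZH2 library. The log2 fold change, here always of normalized count + 1 and of shEZH2 over Vector, was 2.13 (SE 0.17) with all libraries, 2.23 without Vector replicate 2, and 2.24 once a trend with gene length was removed from each library. By log2 fold change it ranked 46 from the top among the 15251 genes tested, those whose mean reached 10 normalized counts.

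PRICKLE1 (ENSG00000139174) lies on the minus strand at chr12:42456757-42590355 in the table's coordinates, which match GRCh38. It overlaps 2959 bases of PPHLN1, on the other strand, and the antisense RNA AC079601.1. The labels do not state whether counting used strand, so how reads from the shared bases were counted is not known. PPHLN1 measured 978 ± 25.8 normalized counts in Vector and 1012 ± 67.2 in shEZH2, with a log2 fold change of 0.05 (SE 0.12), and AC079601.1 had means of 2.18 and 1.17. None of the neighbouring genes with a fit passed the threshold used here. That threshold was an unadjusted p under 0.05 in limma with at least a 1.5-fold change. GXYLT1 had a log2 fold change of -0.15, YAF2 of -0.03, ZCRB1 of -0.02 and the noncoding AC079684.1 of 0.03. All of these, like PPHLN1, start at lower coordinates than PRICKLE1, on its 3′ side, so they say nothing of its 5′ side.

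RefSeq start regions of PRICKLE1, the member with the largest difference, and of its paralog PRICKLE2 are shown for their CpG content. A link between CpG content and level was not tested. Each line gives 250 bases before a RefSeq transcription start, 5′ to 3′ on the gene's strand, with the CG dinucleotides in capitals. The PRICKLE1 stretch is at chr12:42483616-42483865 and the PRICKLE2 stretches are at chr3:64225467-64225716 and chr3:64268174-64268423, all minus strand, GRCh38.p14. All of them lie inside the gene spans of the table. The 5′ ends of those spans, chr12:42590355 for PRICKLE1 and chr3:64445476 for PRICKLE2, fall in none of them. Other starts of these genes were therefore not scored.
PRICKLE1: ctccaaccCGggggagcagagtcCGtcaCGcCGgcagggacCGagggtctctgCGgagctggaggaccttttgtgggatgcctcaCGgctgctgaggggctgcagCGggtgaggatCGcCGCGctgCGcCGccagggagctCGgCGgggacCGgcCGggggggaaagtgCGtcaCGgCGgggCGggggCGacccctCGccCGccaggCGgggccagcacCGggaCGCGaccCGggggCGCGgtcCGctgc
PRICKLE2 start 1: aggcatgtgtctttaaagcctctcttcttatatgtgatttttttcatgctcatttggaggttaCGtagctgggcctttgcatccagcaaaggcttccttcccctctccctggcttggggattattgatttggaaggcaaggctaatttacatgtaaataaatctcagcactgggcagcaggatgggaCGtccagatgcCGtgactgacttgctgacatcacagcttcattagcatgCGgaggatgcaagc
PRICKLE2 start 2: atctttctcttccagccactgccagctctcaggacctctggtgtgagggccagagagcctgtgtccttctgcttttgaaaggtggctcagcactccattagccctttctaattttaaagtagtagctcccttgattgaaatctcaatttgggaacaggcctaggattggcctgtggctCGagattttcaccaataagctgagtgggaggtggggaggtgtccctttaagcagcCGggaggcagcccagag

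The PRICKLE1 stretch holds 32 CG dinucleotides, and the PRICKLE2 stretches hold 4 and 2. In the 300-base RefSeq windows, which add 50 bases after the start, PRICKLE1 has 33, more than 82.8% of the 35116 windows of all genes, while PRICKLE2 has 7 and 4. All 10 members matched RefSeq, with 13 windows. Their median was 29 CG dinucleotides, against 14 over all windows, and 11 of the 13 lay above that. CpG-rich windows were also found at members whose level differed little, such as DVL3 with 43 and VANGL1 with 38 and 32. The letters GGAATG, the core of the TEAD motif, were found on either strand in 1 of the 13 member windows, at VANGL1, against 14.0% of all windows. CTTTGA, the core of the TCF/LEF motif, and TGANTCA, the AP-1 motif, were found in 0 of 13, against 12.9% and 7.71% of all windows. CTTTGA and TGANTCA can share the letters TGA.

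PRICKLE2, a second Prickle protein of the polarity core, measured 161, 274 and 162 normalized counts in Vector and 147, 172 and 198 in shEZH2. The groups overlapped, with Vector replicate 2 far above the other 5 libraries. The log2 fold change was -0.17 (SE 0.24) with all libraries and 0.08 without that one. PRICKLE2 overlaps the antisense genes PRICKLE2-AS1, PRICKLE2-AS2 and PRICKLE2-AS3, none of which had a group mean above 2.18.

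With PRICKLE3 and PRICKLE4 the Prickle genes can be compared per length. PRICKLE1 made up 5.37%, 7.19% and 6.64% of the family's normalized counts per kilobase in Vector and 25.7%, 26.7% and 25.5% in shEZH2. The largest share stayed with PRICKLE3, at 82.8% ± 3.13 in Vector and 65.5% ± 0.96 in shEZH2 (SD, n = 3 each). The sum over the family was 136 ± 6.34 and 147 ± 10.0 normalized counts per kilobase, and the groups overlapped in it. PRICKLE3 itself measured 358 ± 17.9 normalized counts in Vector and had a log2 fold change of -0.23 (SE 0.13, limma adjusted p = 0.345).

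VANGL1 and VANGL2 encode membrane proteins that recruit Prickle. VANGL1 measured 733, 843 and 754 normalized counts in Vector and 755, 819 and 887 in shEZH2, a log2 fold change of 0.08 (SE 0.13). VANGL2 measured 743, 1027 and 702 in Vector and 770, 826 and 922 in shEZH2, a log2 fold change of 0.04 (SE 0.18). The groups overlapped in both genes, and in both the overlap came from Vector replicate 2. Without it the log2 fold changes were 0.14 and 0.21, and the groups no longer overlapped in either, though by under 1 normalized count in VANGL1. VANGL1 made up 36.0% ± 3.15 of their joint normalized counts per kilobase in Vector and 36.6% ± 0.36 in shEZH2. The means of this share differed by less than the SD in Vector but by more than the SD in shEZH2, and the groups overlapped.

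CELSR2, an atypical cadherin of the cell membrane, carried the widest spread within a group. It measured 1026, 2211 and 1160 normalized counts in Vector and 1259, 1330 and 1528 in shEZH2. Vector replicate 2 was the highest library and the other Vector libraries were the lowest of all 6. Accordingly the log2 fold change was -0.01 (SE 0.28) with all libraries, 0.33 without Vector replicate 2 and 0.21 with the length trend removed. Within the family CELSR2 took 44.0%, 49.8% and 48.4% of the normalized counts per kilobase in Vector and 59.2%, 60.0% and 62.5% in shEZH2. CELSR1 went the other way, from 26.3% ± 1.19 to 16.8% ± 1.65 of the family, and the groups overlapped in neither share. In the CELSR1 share Vector replicate 2 lay between the other Vector libraries.

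DVL2 and DVL3 encode dishevelled proteins, which relay Wnt signals to both the beta-catenin and the polarity branch. DVL2 measured 791, 702 and 770 normalized counts in Vector and 1027, 838 and 864 in shEZH2. Every shEZH2 library lay above every Vector library, by a log2 fold change of 0.27 (SE 0.14) with all libraries and 0.22 without Vector replicate 2, which was the lowest here. DVL3 measured 1084, 1524 and 1188 in Vector and 1200, 1177 and 1116 in shEZH2, with overlapping groups and a log2 fold change of -0.11 (SE 0.16), or 0.04 without Vector replicate 2. Per kilobase DVL1 held the largest share of the dishevelled genes, 53.5% ± 2.29 in Vector and 52.1% ± 2.74 in shEZH2.

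WNT5A, the ligand, was low in both groups. It measured 37.6, 50.1 and 36.7 normalized counts in Vector and 35.2, 40.7 and 31.5 in shEZH2, from 33 to 51 reads per library. The groups overlapped, and the log2 fold change was -0.20 (SE 0.24), or -0.06 without Vector replicate 2. Per kilobase, 7.02% of the tested protein-coding genes had a lower level in Vector and 5.91% in shEZH2. WNT5A overlaps 610 bases of WNT5A-AS1 on the other strand, whose group means were 3.78 and 2.49.

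ROR1 and ROR2 encode the receptor tyrosine kinases that bind Wnt5a. ROR1 measured 94.1, 115 and 97.7 normalized counts in Vector and 79.0, 96.6 and 97.4 in shEZH2, a log2 fold change of -0.17 (SE 0.18), or -0.08 without Vector replicate 2. The groups overlapped. ROR2 had 0 reads in each Vector library and 2, 1 and 1 reads in shEZH2. At a floor of 3 reads per library it was not detectable in either group, so no fold is given and it was not fitted. These bulk libraries cannot tell fewer cells with a transcript from less of it per cell.

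**Figure D2:**
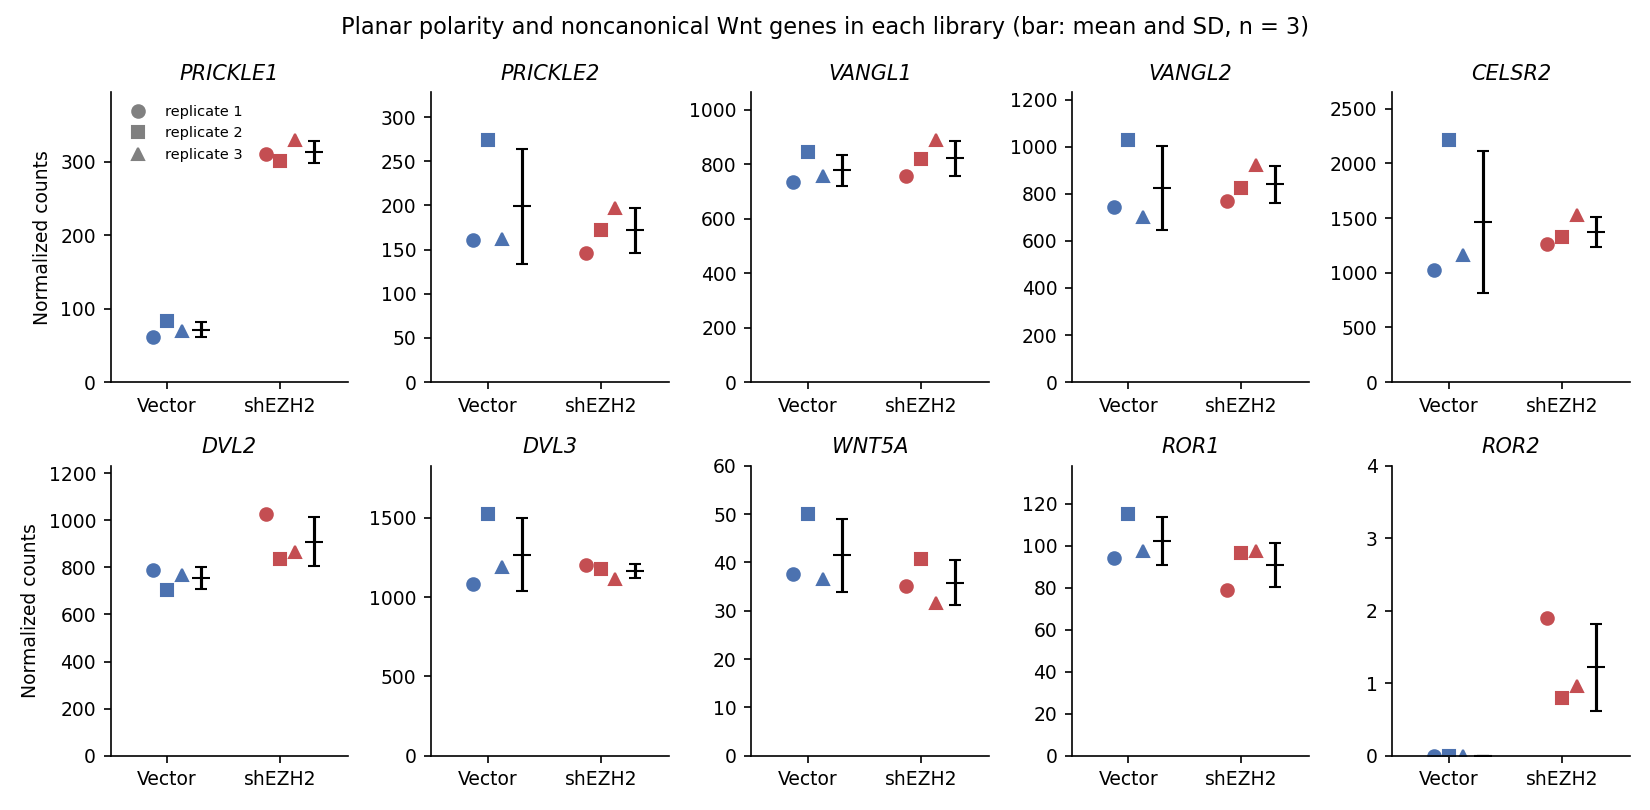
Normalized counts of the 10 members in each of the 6 libraries (vertical axes from 0, a scale per gene), with Vector in blue and shEZH2 in red. Symbols mark replicates, and black bars give the mean and SD of 3 libraries. PRICKLE1 lies between 61.7 and 82.7 in Vector and between 301 and 329 in shEZH2, DVL2 and the near-absent ROR2 are the other members without overlap, and Vector replicate 2 (blue square) is the highest Vector library in 8 of the 10 panels.

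Of the 9 members fitted, 1 passed the threshold, PRICKLE1, and it was higher in shEZH2. Over all 15251 genes, 14.6% passed in either direction, 7.55% higher and 7.07% lower, and 4.12% had an adjusted p under 0.05. Since the members were chosen with this comparison in view, nothing is read from their count. The other 8 had log2 fold changes between -0.20 and 0.27, and the median of the 9 was -0.01, against 0.04 over all genes tested. Non-overlapping groups were found in 2 of the 9, PRICKLE1 and DVL2, against 34.8% of all genes. Without Vector replicate 2 they did not overlap in 5 of the 9, against 50% of all genes, and the log2 fold change of PRICKLE2, CELSR2 and DVL3 changed sign. Over the 15 other settings computed, PRICKLE1 stayed between 2.03 and 2.24 and passed in each, while no other member passed in any, apart from ROR2, which was fitted only with no minimum and then passed on its 4 reads.

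**Figure D3:**
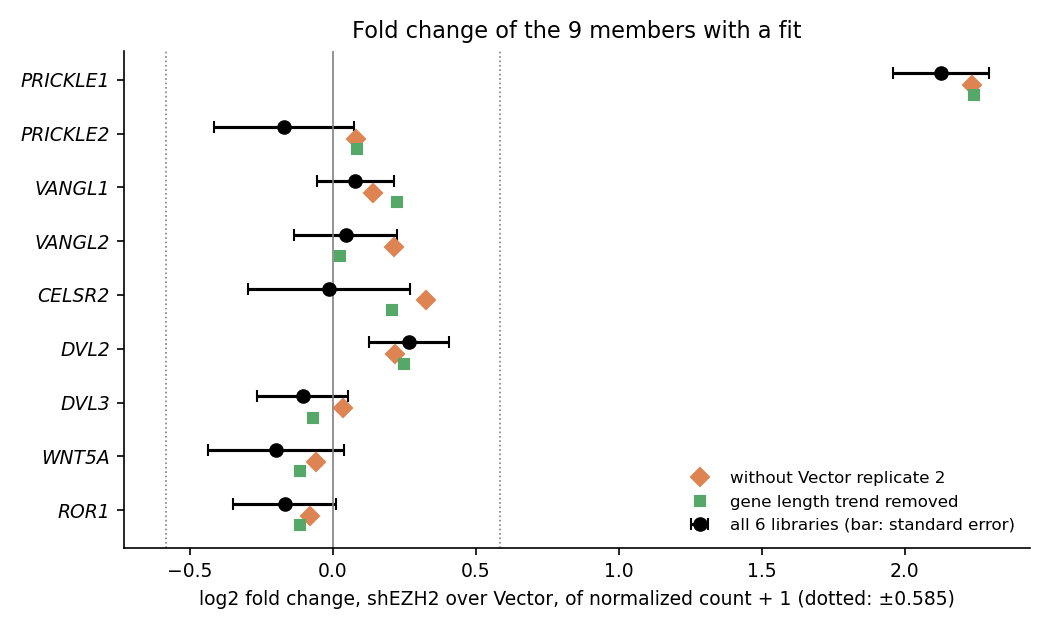
Log2 fold change of shEZH2 over Vector for the 9 fitted members (horizontal axis), with all 6 libraries and its standard error (black), without Vector replicate 2 (orange) and with the gene length trend removed (green). Dotted lines mark a 1.5-fold change. PRICKLE1 lies near 2.13 under each treatment, and PRICKLE2, CELSR2 and DVL3 cross 0 without Vector replicate 2.

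Set in order of level, as normalized counts per kilobase, the members formed a high and a low class. In Vector the order was DVL3 (199 ± 36.1), VANGL2 (154 ± 33.1), DVL2 (141 ± 8.65), CELSR2 (119 ± 52.6) and VANGL1 (85.7 ± 6.43), and each overlapped its neighbour in this order. ROR1 (15.2 ± 1.68) and PRICKLE2 (13.5 ± 4.39) followed at a distance and overlapped each other. Below them PRICKLE1 (8.67 ± 1.28) and WNT5A (5.60 ± 1.01) were set apart from their neighbours, and ROR2 was listed at 0. In shEZH2 the order of the high class was DVL3 (183), DVL2 (170), VANGL2 (157), CELSR2 (111) and VANGL1 (90.5). PRICKLE1, at 38.03 ± 1.75, then stood above ROR1 (13.6), PRICKLE2 (11.7) and WNT5A (4.84), with its lowest library above the highest of any of these. Among the tested protein-coding genes, 10.7% lay below PRICKLE1 in Vector and 28.8% in shEZH2.

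Other genes of the pathways were taken from 4 lists drawn up by function, likewise with earlier results known. Of 25 further genes of the planar polarity core and its regulators, 23 were tested. Of these 1 rose and 1 fell, against 7.55% and 7.07% of all genes tested, and the median log2 fold change was -0.03. CELSR1, the atypical cadherin related to CELSR2, measured 664, 1210 and 623 normalized counts in Vector and 406, 386 and 383 in shEZH2. It fell by 1.02 on the log2 scale (SE 0.25, limma adjusted p = 0.0700), and by 0.72 without Vector replicate 2. DACT1, an intracellular partner of dishevelled, measured 1084, 905 and 1060 in Vector and 1626, 1685 and 1788 in shEZH2. Its log2 fold change was 0.74 (SE 0.13, limma adjusted p = 0.0280). The remaining 21, DVL1, SCRIB and PTK7 among them, did not pass, with log2 fold changes of -0.03, -0.27 and 0.16 for these. The largest among the 21 were DCHS1 (0.85, SE 0.43), CELSR3 (-0.579, SE 0.21), GIPC1 (0.575, SE 0.19) and FZD3 (-0.48, SE 0.18). With all libraries the groups overlapped in DCHS1 but not in CELSR3, GIPC1 or FZD3, and CELSR3 and GIPC1 lay just under the fold threshold. DCHS1 measured 14.6, 36.1 and 11.2 normalized counts in Vector and 38.1, 33.5 and 29.6 in shEZH2, so only Vector replicate 2 overlapped. Dropping this library gave log2 fold changes of 1.32 for DCHS1, -0.34 for CELSR3, 0.42 for GIPC1 and -0.39 for FZD3.

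Of 32 Wnt ligands and receptors, 25 had a row and 16 were tested. In limma 3 rose and 0 fell, against 7.55% and 7.07% of all genes, and the median log2 fold change was 0.11. With 16 genes tested, a count of 0 lower is not read as a result. The count of lower genes was also 0 with edgeR and with DESeq2, and 1, FZD7, at an unadjusted p under 0.05 with no fold threshold. The other ligand of the Wnt5 pair, WNT5B, rose from 23.0, 17.5 and 21.4 normalized counts to 77.1, 56.7 and 73.5, a log2 fold change of 1.69 (SE 0.24, limma adjusted p = 0.0157). Its span includes FBXL14 on the other strand, with means of 341 and 376. WNT5B accounted for 6.57% ± 0.28 of the normalized counts per kilobase of all Wnt ligands in Vector and 14.8% ± 2.18 in shEZH2, and WNT5A for 8.003% ± 3.03 and 4.47% ± 0.61. The groups overlapped in neither share. By library the WNT5A share was 6.08%, 11.5% and 6.42% in Vector and 4.11%, 5.17% and 4.13% in shEZH2. A share also depends on the other ligands, and in the level of WNT5A itself the groups overlapped.

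FZD2, a Frizzled receptor used by Wnt5a, measured 254, 160 and 229 normalized counts in Vector and 508, 485 and 477 in shEZH2. It rose by a log2 fold change of 1.22 (SE 0.19, limma adjusted p = 0.0211), or 1.02 without Vector replicate 2. FZD2 took 19.4% ± 4.70 of the Frizzled total per kilobase in Vector and 37.8% ± 1.94 in shEZH2, while FZD7 took 42.3% ± 2.07 and 28.5% ± 1.72. WNT10B, a ligand of the beta-catenin branch, measured 145, 76.8 and 145 in Vector and 196, 184 and 179 in shEZH2. Its log2 fold change was 0.66 (SE 0.26, limma adjusted p = 0.188) with all libraries, and 0.36 without Vector replicate 2, when it no longer passed. Leaving out any one shEZH2 library also ended the call, at 0.63, 0.67 and 0.69, and so did removing the length trend, at 0.45.

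Averaged over all 6 libraries, the genes of this list with the highest level per kilobase were MCAM, a cell adhesion molecule that also binds Wnt5a, RYK, a Wnt-binding pseudokinase, and FZD7. MCAM measured 4929 ± 412 normalized counts in Vector and 4937 ± 350 in shEZH2, and RYK 1761 ± 210 and 1879 ± 84.1. The groups overlapped in both. FZD7 measured 859 ± 68.9 and 677 ± 53.8, with a log2 fold change of -0.34 that did not pass the threshold, though the groups did not overlap. In shEZH2 alone FZD7, at 175 normalized counts per kilobase, stood below FZD2 (232) and WLS (199), a carrier of Wnt ligands. MCAM also overlaps CBL on the other strand.

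**Figure D4:**
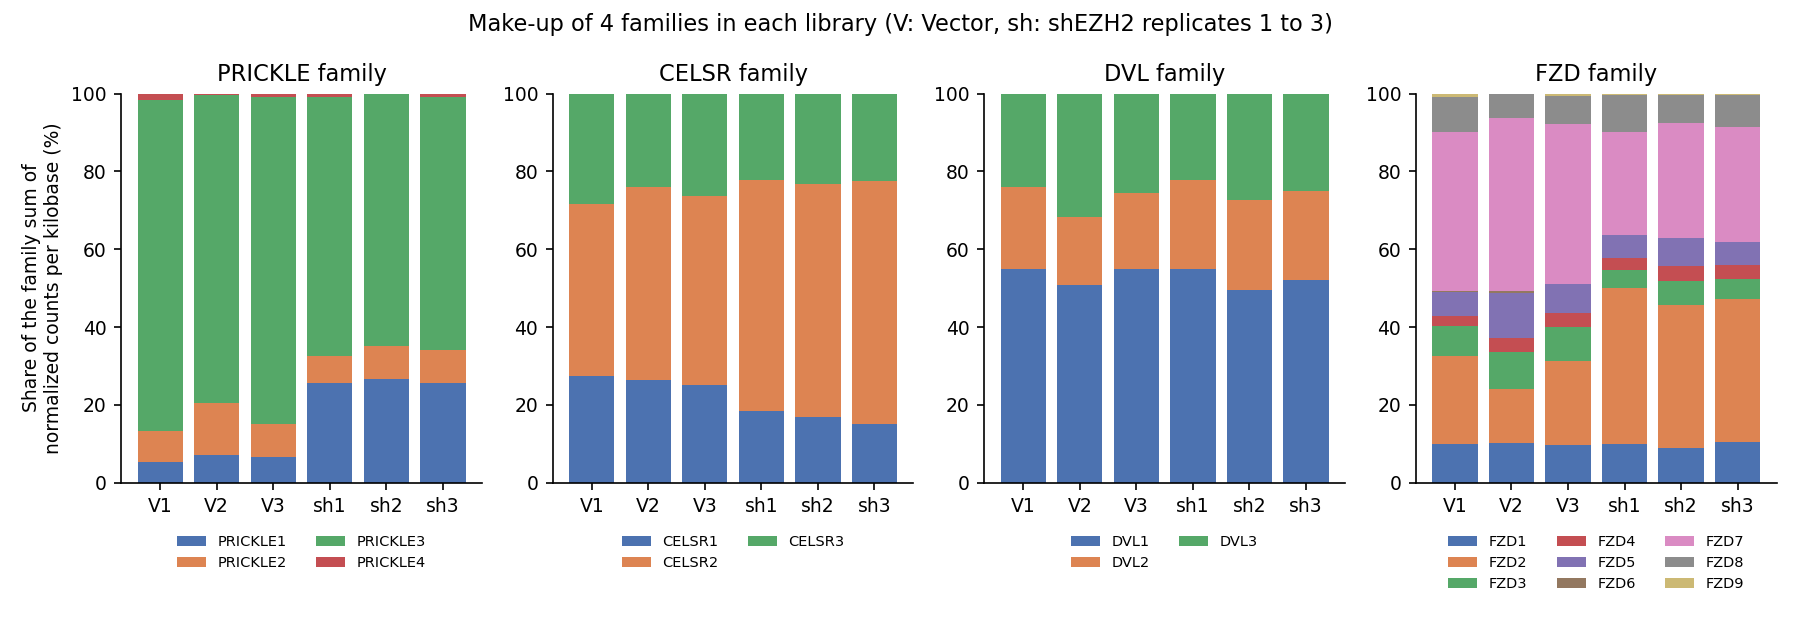
Share of each gene in the summed normalized counts per kilobase of the Prickle, Celsr, dishevelled and Frizzled families (vertical axis, %), for Vector replicates 1 to 3 (V1 to V3) and shEZH2 replicates 1 to 3 (sh1 to sh3). PRICKLE1 goes from 6.40% to 26.0%, CELSR2 from 47.4% to 60.6% and FZD2 from 19.4% to 37.8% as group means, and the dishevelled share that differs most, that of DVL2, goes from 19.3% to 23.0%.

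Among 33 effectors of the noncanonical branch, 32 had a row and 28 were tested. Of these 1 rose and 3 fell, against 7.55% and 7.07% of all genes, and the median log2 fold change was -0.06. ROCK1, a kinase that acts on actomyosin, fell from 977, 1422 and 1031 normalized counts to 387, 379 and 324. Its log2 fold change was -1.64 (SE 0.18, limma adjusted p = 0.00793), or -1.47 without Vector replicate 2. ROCK1 has a near-identical pseudogene copy, so how its reads were assigned is uncertain. ROCK2, its paralog, measured 1528, 2741 and 1529 in Vector and 966, 1159 and 1139 in shEZH2. ROCK2 fell by 0.78 on the log2 scale (SE 0.24, limma adjusted p = 0.119), and by 0.49 without Vector replicate 2, when the call was lost, as it was without shEZH2 replicate 1 (-0.69).

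JUN, the transcription factor at the end of the c-Jun N-terminal kinase branch, measured 787, 587 and 723 normalized counts in Vector and 1558, 1288 and 1419 in shEZH2. It rose by a log2 fold change of 1.03 (SE 0.16, limma adjusted p = 0.0196). NFATC2, a calcium-responsive transcription factor, measured 496, 909 and 469 in Vector and 273, 393 and 405 in shEZH2, and fell by 0.76 (log2 scale, SE 0.29, limma adjusted p = 0.171). Without Vector replicate 2 it fell by 0.45 and no longer passed, and the call was also lost without shEZH2 replicate 1 (-0.58) or 2 (-0.84). The GTPases RHOA and RAC1, at means of 6917 and 4327 normalized counts in Vector, had log2 fold changes of 0.38 and 0.11 and did not pass. Without Vector replicate 2 these were 0.21 and 0.07. The groups overlapped in neither gene, as was the case for 34.8% of all genes tested.

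For comparison, 37 genes of the beta-catenin pathway and Wnt antagonists were taken, of which 34 had a row and 25 were tested. There 3 rose and 2 fell, against 7.55% and 7.07% of all genes, and the median log2 fold change was 0.12. TCF7L1, a TCF factor known mainly as a repressor, measured 12.5, 22.1 and 25.5 normalized counts in Vector and 65.7, 67.1 and 60.1 in shEZH2, a log2 fold change of 1.69 (SE 0.30, limma adjusted p = 0.0279). KREMEN2, a receptor of Dickkopf proteins, measured 42.9, 54.7 and 47.9 against 127, 96.6 and 103, a log2 fold change of 1.15 (SE 0.20, limma adjusted p = 0.0269). KREMEN2 shares 360 bases with PKMYT1 on the other strand, whose means were 517 and 970.

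BCL9L, a beta-catenin coactivator, measured 1654, 2632 and 1487 normalized counts in Vector and 1041, 1017 and 1072 in shEZH2. It fell by 0.84 (log2 scale, SE 0.22, limma adjusted p = 0.0787), and by 0.59 without Vector replicate 2. APC, a scaffold of the complex that degrades beta-catenin, measured 535, 853 and 495 against 335, 458 and 418, a log2 fold change of -0.60 (SE 0.24, limma adjusted p = 0.183) that no longer passed, at -0.36, without Vector replicate 2. Without shEZH2 replicate 1 or 3 it did not pass either (-0.48 and -0.64), nor with the length trend removed (-0.38). DKK2, a secreted Wnt modulator at 17.1 ± 1.85 and 27.4 ± 2.46, had a log2 fold change of 0.65 (SE 0.26, limma adjusted p = 0.190) and passed in only 4 of 14 other settings. CTNNB1, which encodes beta-catenin, measured 27656 ± 8608 and 22798 ± 1787, with a log2 fold change of -0.24 (limma adjusted p = 0.555). AXIN2, a common target of beta-catenin, had a log2 fold change of -0.49 with all libraries (limma adjusted p = 0.325), or -0.59 without Vector replicate 2.

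**Figure D5:**
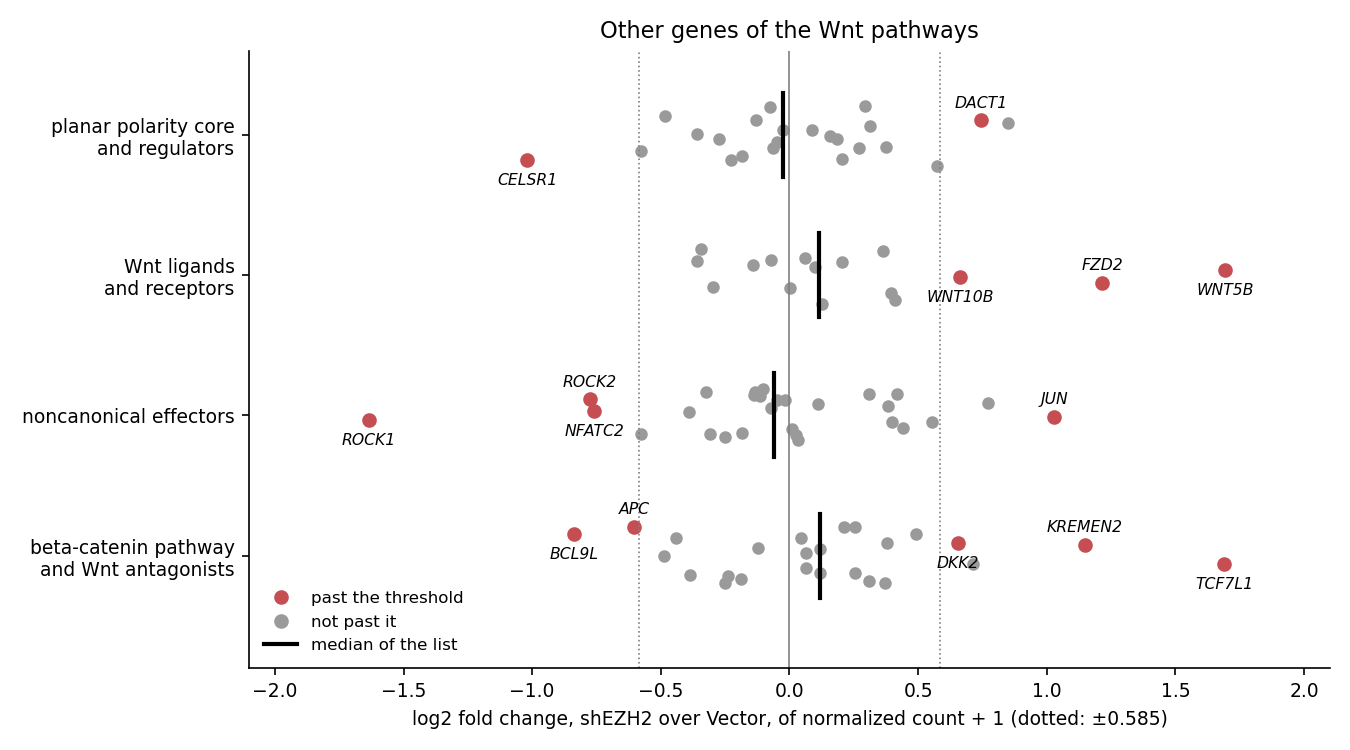
Log2 fold change of shEZH2 over Vector (horizontal axis) for each tested gene of the 4 pathway lists, 23, 16, 28 and 25 genes from top to bottom. Red points passed the threshold and are named, grey points did not, black bars are the medians of the lists, and dotted lines mark a 1.5-fold change. The medians lie between -0.06 and 0.12, and WNT5B, TCF7L1 and ROCK1 lie farthest from 0.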

How the data were processed

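RNA was extracted with TRIzol, poly-A selected and sequenced on an Illumina NovaSeq. Per the labels, featureCounts (v1.5.0-p3) gave the reads of each gene, and the submitters' processing notes name DESeq2 1.20.0. The aligner is not given in the sources used here. The deposited signal values are the authors' counts after division by 1 size factor per library. All 6 library columns were used and 0 were left out. Dividing by the smallest step of a library returned whole reads for 100% of its values (within 0.01). Columns with the authors' own comparison (fold change, p and adjusted p) were not used. The labels name hg19, but of 20628 genes 47.7% have a start or end equal to that in GRCh38, and 0.708% to that in GRCh37, so coordinates are GRCh38.

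Groups were compared with limma 3.58.1 (R 4.3.3, trended eBayes) on log2 values with a pseudocount of 1. The 15251 genes whose mean reached 10 were tested, with Benjamini-Hochberg adjustment over them. A gene passed the threshold, taken from the study's methods, at a raw p under 0.05 and a change of more than 1.5-fold. Fold changes on this scale understate those of low genes. Counts per kilobase used the table's gene lengths. The members and lists were chosen with earlier results of these data known. Named genes are the members, every list gene past the threshold (up to 8 a list), the 3 receptor-list genes of highest level per kilobase, and the nearest 3 genes in pattern, of which 1 is not reported here. Other genes given for orientation (PRICKLE3, DVL1, SCRIB, PTK7, DCHS1, CELSR3, GIPC1, FZD3, WLS, RHOA, RAC1, CTNNB1, AXIN2, TYRP1, MLANA, TYR, LUM, COL1A2, CDH1, VWF) were chosen after their values were seen. On the recovered reads edgeR 4.0.16 (quasi-likelihood) passed 2277 genes and DESeq2 1.42.0 passed 2366, against 2229 with limma. Other alternatives were pseudocounts of 0.1 and 5, no minimum or a mean of at least 50, TMM scaling, a replicate block, a length trend removed, each library left out, an adjusted p, and a log2 threshold of 1. The fits were tested on simulated data. Promoter windows came from RefSeq (GRCh38.p14). WNT1, WNT2, WNT7A, WNT8A, WNT9B, WNT10A, FZD10, NFATC4, DKK4, SFRP2, WIF1, KRT5, CDH5 and CD3E were not analysed here.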

Additional observations from a re-analysis of the deposited data

How the results depend on the processing

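With 3 libraries a group, depth limited the low genes most, ROR2 at 0 to 2 reads above all. EZH2 kept its direction and its call under all 15 alternatives, with log2 fold changes between -1.12 and -0.96, and so did PRICKLE1. Without a minimum, 2 members passed, the second being ROR2 on 4 reads in all, and under the other alternatives the count was 1. For the planar polarity list the count of 2 rose to 4 with the length trend removed, ranged from 2 to 4 as each library was left out, and was 1 with an adjusted p or a log2 threshold of 1. For the noncanonical effectors the count of 4 ranged from 2 to 6 as each library was left out and was 2 with an adjusted p and 2 with a log2 threshold of 1. For the beta-catenin list the count of 5 was 3 with a mean of at least 50, 3 to 5 as each library was left out, 2 with an adjusted p and 2 with a log2 threshold of 1. Over all genes 2229 became 624 with an adjusted p and 798 with a log2 threshold of 1. The fewer genes under stricter thresholds follow from their construction, and otherwise the cause was not tested. Over all genes the log2 fold changes had a median of 0.04, which was also 0.04 with TMM scaling, 0.02 with edgeR and -0.002 with DESeq2. With DESeq2 the split was 1045 higher of 2366, and with limma 1151 of 2229.

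Libraries with the same replicate number deviated from their group means with correlations across genes of 0.28, 0.22 and -0.11. Between libraries with different numbers the correlations ran from -0.31 to 0.25. Vector replicate 2 dominates the deviations in Vector, so these values cannot settle whether the numbers pair the libraries. The main fit did not pair them. With the replicate number as a block 2434 genes passed, the members stayed at 1, the beta-catenin list went from 5 to 4 as DKK2 was lost, and no other list count changed.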

Other observations

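The genes nearest in pattern to 4 of the members were found by the root mean square difference of their log2 deviations from the gene mean over the 6 libraries, among 11891 genes with a mean of at least 50. PRICKLE1 was nearest to NXN, a nucleoredoxin known to bind dishevelled (difference 0.17), which measured 17.8, 22.1 and 23.4 normalized counts in Vector and 109, 80.7 and 85.0 in shEZH2. NLRP10 (0.20) and IGLON5 (0.20) followed. VANGL1 was nearest to CNOT9, ZNF623 and IP6K1 (0.03 each). The genes near ROR1 included WDR26 and RABGAP1 (0.03 each), and WNT5A was nearest to HDAC8 (0.03), ZNF470 (0.06) and FNBP1 (0.07). In the 6 genes nearest to VANGL1 and WNT5A, Vector replicate 2 was the highest Vector library, as it was in those members. Choosing genes by likeness largely builds this in, so it is not read as a result. Nothing on shared control follows from such likeness.

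The normalized counts per kilobase summed over the Wnt ligands with a row were 83.7, 58.8 and 77.1 in Vector and 116, 107 and 103 in shEZH2, with WNT10B at 62.4% ± 11.3 and 65.4% ± 0.97 of the sum. The Frizzled sum was 535, 541 and 501 in Vector and 601, 625 and 618 in shEZH2. Its genes went both ways: FZD2 had means of 101 in Vector and 232 in shEZH2, FZD7 of 222 and 175, and FZD3 of 45.4 and 32.6. The groups overlapped in neither sum, as was the case for 34.8% of single genes tested, and no test was run on the sums.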
